A study of Homo sapiens with 32 samples.

Results

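The 33 genes described here make cholesterol and fatty acids, or regulate their synthesis and transport under the control of SREBP, the sterol regulatory element binding proteins. They were taken by gene name from a list that was chosen with earlier results of these data known. All 33 were found among the 57773 genes of both count tables. By role, 8 act in the mevalonate steps, 11 lead from squalene to cholesterol, 6 belong to SREBP regulation and sterol transport, and 8 serve fatty acid and phosphatidate synthesis. The cells were HEK293, a long-established line derived from human embryonic kidney, and every group, the control included, carried AT1R, the type 1 receptor for angiotensin II, by transient transfection of the human gene and was kept without serum before the stimulus. The control received no stimulus, and the other conditions were angiotensin II at 1 nmol/l (AII), EGF at 10 µg/l, or both together (AII + EGF). RNA was taken after 6 h and after 24 h, with 4 libraries for each condition, except AII + EGF after 24 h, for which 3 were analysed. Nothing states that the libraries of a condition came from separate cultures, so the tests measure the spread between these libraries, which may be technical.

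When sterols are scarce in the endoplasmic reticulum, the escort protein SCAP carries SREBP to the Golgi apparatus, where proteases release the part that enters the nucleus and activates the genes of lipid synthesis. INSIG1 and INSIG2 retain the complex of SCAP and SREBP when sterols are plentiful, and INSIG1 is itself a target of SREBP. SREBF2 encodes SREBP2, which mainly drives cholesterol synthesis, and SREBF1 encodes the SREBP1 isoforms, which act more on fatty acid synthesis.

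Total counts per library were 3881841 to 8540815 after 6 h and 6646227 to 33070903 after 24 h. Protein-coding genes held 81.4% to 84.7% of these counts after 6 h but 20.8% to 63.4% after 24 h, when U1 small nuclear RNA took 8.92% to 57.2%. The biological coefficient of variation was 10.6% after 6 h and 29.1% after 24 h. AGTR1, the gene of the transfected receptor, was present in every library (950 to 1568 FPM after 6 h and 369 to 685 FPM after 24 h, where FPM are counts per 1000000 counts of the TMM-scaled library). Its level after 6 h was 950 to 1191 FPM in control and 1023 to 1236 FPM with EGF. It was 1318 to 1515 FPM with AII and 1414 to 1568 FPM with AII + EGF, above every library without AII. The conditions overlapped after 24 h. What this difference in AGTR1 contributed to the results was not tested. Of the markers fixed for HEK293 cells, VIM, NEFL and NEFM were high in every library and KRT8 and KRT18 were low, with 2.10 FPM as the lowest KRT18 level after 6 h. PAX2 reached at most 1.16 FPM. The liver markers ALB, APOA1 and CYP7A1 and the fat cell markers ADIPOQ and FABP4 stayed at or below 1.10 FPM each in every library, as did the blood marker PTPRC and the steroidogenic enzyme CYP11A1. PLIN1 reached 2.36 FPM and STAR 6.84 FPM. Of the HEK293 markers, NEFM had the widest range over all libraries, 358 to 811 FPM after 6 h and 1200 to 3590 FPM after 24 h. NEFL was at 395 to 602 and 342 to 556 FPM, and VIM at 261 to 322 and 154 to 228 FPM. After 24 h the summed level of the HEK293 markers, of which NEFM varied most, was higher with EGF and with AII + EGF. After 6 h the EGF libraries overlapped control. The sum after 6 h was 1170 to 1300 FPM in control and 1110 to 1260 FPM with AII. It was 1250 to 1430 FPM with EGF and 1420 to 1590 FPM with AII + EGF. After 24 h the sums were, in the same order, 1840 to 2070, 1740 to 2060, 3280 to 4350 and 2910 to 3200 FPM. The part of this difference in the results was not tested.

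All 33 genes passed the filter on low counts at both time points (18618 genes tested after 6 h, 22174 after 24 h). Per kilobase of exon in untreated cells after 6 h, fatty acid synthase (FASN) had the highest level at 132 FPM per kilobase. It was followed by ATP citrate lyase (ACLY) at 91.2, squalene epoxidase (SQLE) at 69.4 and stearoyl-CoA desaturase (SCD) at 65.6 FPM per kilobase. The lowest were FADS2 at 1.76 and TM7SF2 at 2.07 FPM per kilobase. Among the regulators, INSIG1 (51.7), SREBF2 (40.6) and SCAP (33.1) exceeded INSIG2 (5.02) and SREBF1 (3.70). Length was the union of all exons of a gene in the GENCODE annotation lifted to GRCh37, and the ranking depends on it. It was 10553 bases for FADS2 and 3408 for TM7SF2, which without this division were at 18.5 and 7.07 FPM. Counts in a control library after 6 h ranged from 27 for TM7SF2 to 7951 for FASN.

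After 6 h, EGF raised INSIG1 and, less strongly, a small set of sterol and fatty acid genes, and lowered LPIN1 and SREBF2. With an FDR under 0.05 in edgeR's quasi-likelihood test over all genes, 9 of the 33 genes changed (27.3%, against 5.97% of all genes tested). Of these, 7 rose (21.2%, against 3.6% of all genes) and 2 fell (6.06%, against 2.37%). The list was chosen with earlier results of these data known, so these shares are not independent evidence of an excess. The other 24 did not pass, and the median log2 fold change of the 33 was -0.0028 beside -0.01 over all genes, with 16 positive and 17 negative values. When a fold change above 1.5 and an FPM above 5 were also required, INSIG1 alone was called (3.03%, against 1.73% of all genes). The groups did not overlap in 11 of the 33 genes, against 12% of all genes, and an unadjusted p under 0.05 was found in 15, against 20.2%.

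The regulators and the sterol carrier held the largest rises. INSIG1 was at 203, 184, 193 and 174 FPM in the control libraries and at 359, 317, 311 and 318 FPM with EGF. Every EGF library lay far above every control library. The log2 fold change was 0.79 (SE 0.069, adjusted p = 1.04e-07, edgeR), which is a mean of 189 ± 12.2 FPM (SD, n = 4) against 326 ± 22.0 FPM (SD, n = 4).

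INSIG2, the sister protein with the same retention role, was at 13.9, 22.8, 24.0 and 18.7 FPM in control and at 28.6, 31.7, 30.1 and 26.1 FPM with EGF (log2 fold change 0.54, SE 0.14, adjusted p = 0.0176). STARD4, a cytosolic carrier that moves cholesterol between membranes, was at 34.7, 35.1, 36.4 and 35.1 FPM in control and at 55.1, 44.1, 49.9 and 44.5 FPM with EGF (log2 fold change 0.45, SE 0.095, adjusted p = 0.00488). In both genes the lowest EGF library stood above the highest control library. SREBF2 was at 376, 317, 306 and 308 FPM in control and at 246, 270, 273 and 296 FPM with EGF, again without overlap. Its log2 fold change was -0.27 (SE 0.081) with an adjusted p of 0.04996, just inside the threshold. Neither SREBF1 (log2 fold change 0.28, SE 0.12, adjusted p = 0.213) nor SCAP (-0.15, SE 0.12, adjusted p = 0.523) passed, and their EGF and control libraries overlapped.

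**Figure D1:**
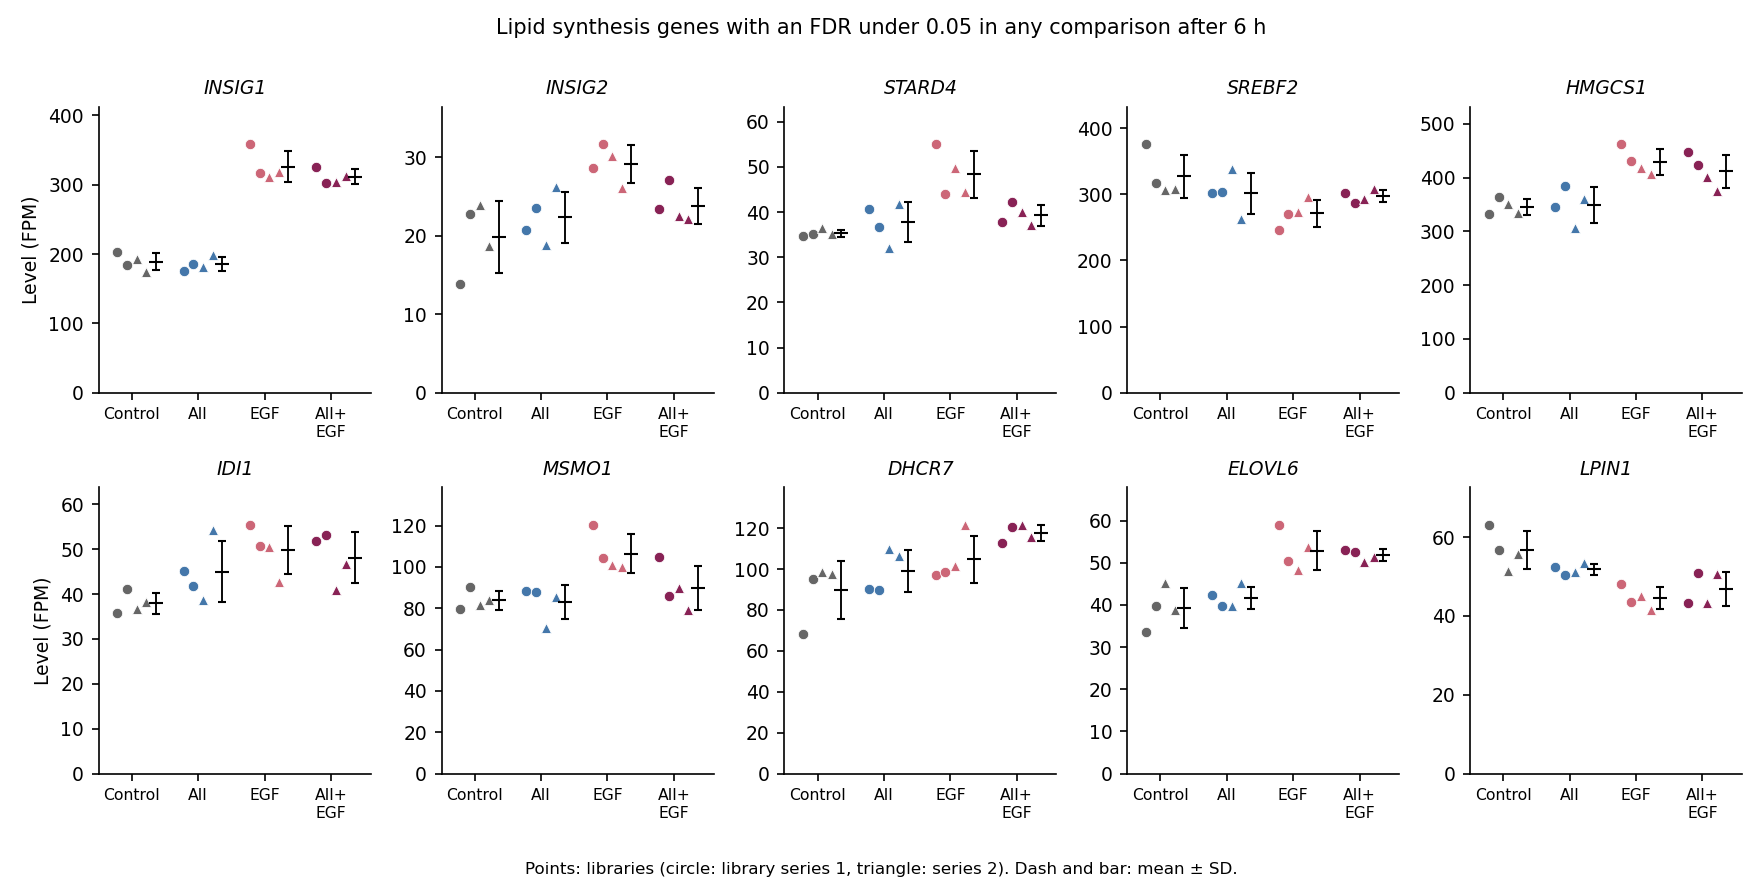
Level in FPM (vertical axes, from 0) of the 10 genes that passed an FDR of 0.05 in any comparison after 6 h, by condition; points are libraries (circles library series 1, triangles series 2) and dashes with bars are mean ± SD (n = 4). INSIG1 was at 311 to 359 FPM with EGF and 302 to 326 FPM with AII + EGF, above all control and AII libraries (174 to 203 FPM).

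In the mevalonate steps, which build isoprenoid units from acetyl-CoA, 2 of 8 genes rose. HMGCS1, the cytosolic HMG-CoA synthase, was at 333, 364, 350 and 334 FPM in control and at 462, 431, 418 and 406 FPM with EGF (log2 fold change 0.31, SE 0.074, adjusted p = 0.0112). IDI1, the isopentenyl diphosphate isomerase, was at 35.8, 41.2, 36.6 and 38.2 FPM in control and at 55.4, 50.8, 50.5 and 42.7 FPM with EGF (log2 fold change 0.39, SE 0.11, adjusted p = 0.0335). Both sets of libraries were separate, although the lowest IDI1 library with EGF was close to the highest control. The other 6 did not pass, and their log2 fold changes ran from -0.54 for PMVK, the phosphomevalonate kinase (adjusted p = 0.0907), to 0.12 for GGPS1, which makes geranylgeranyl diphosphate. The median of the 8 was -0.12.

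From squalene to cholesterol, 1 of 11 genes rose. MSMO1, which removes methyl groups from the sterol nucleus, was at 79.8, 90.1, 81.4 and 84.0 FPM in control and at 120, 104, 101 and 100 FPM with EGF, with no overlap (log2 fold change 0.34, SE 0.091, adjusted p = 0.0249). NSDHL, which acts on the same methyl groups, was at 18.1 ± 2.11 FPM in control and 22.6 FPM on average with EGF and did not pass (adjusted p = 0.178). The remaining genes lay within log2 fold changes of -0.20 (CYP51A1) and 0.22 (DHCR7), and 8 of the 11 were within 0.2 of zero. SQLE, the oxygenase that commits squalene to sterols, had a log2 fold change of -0.08 (SE 0.073).

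Among the fatty acid and phosphatidate genes, 1 of 8 rose and 1 fell. ELOVL6, which elongates saturated and monounsaturated fatty acids, was at 33.5, 39.7, 45.2 and 38.7 FPM in control and at 59.0, 50.5, 48.3 and 53.7 FPM with EGF (log2 fold change 0.42, SE 0.091, adjusted p = 0.00524). LPIN1, a phosphatidate phosphatase that makes diacylglycerol, was at 63.1, 56.8, 51.4 and 55.7 FPM in control and at 48.1, 43.5, 45.0 and 41.5 FPM with EGF (log2 fold change -0.35, SE 0.085, adjusted p = 0.0135). In neither gene did the groups overlap. The abundant enzymes of this group did not pass, with log2 fold changes of -0.03 for FASN, 0.06 for acetyl-CoA carboxylase (ACACA), 0.06 for ACLY and 0.19 for SCD (SE 0.12, 0.060, 0.070 and 0.073).

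**Figure D2:**
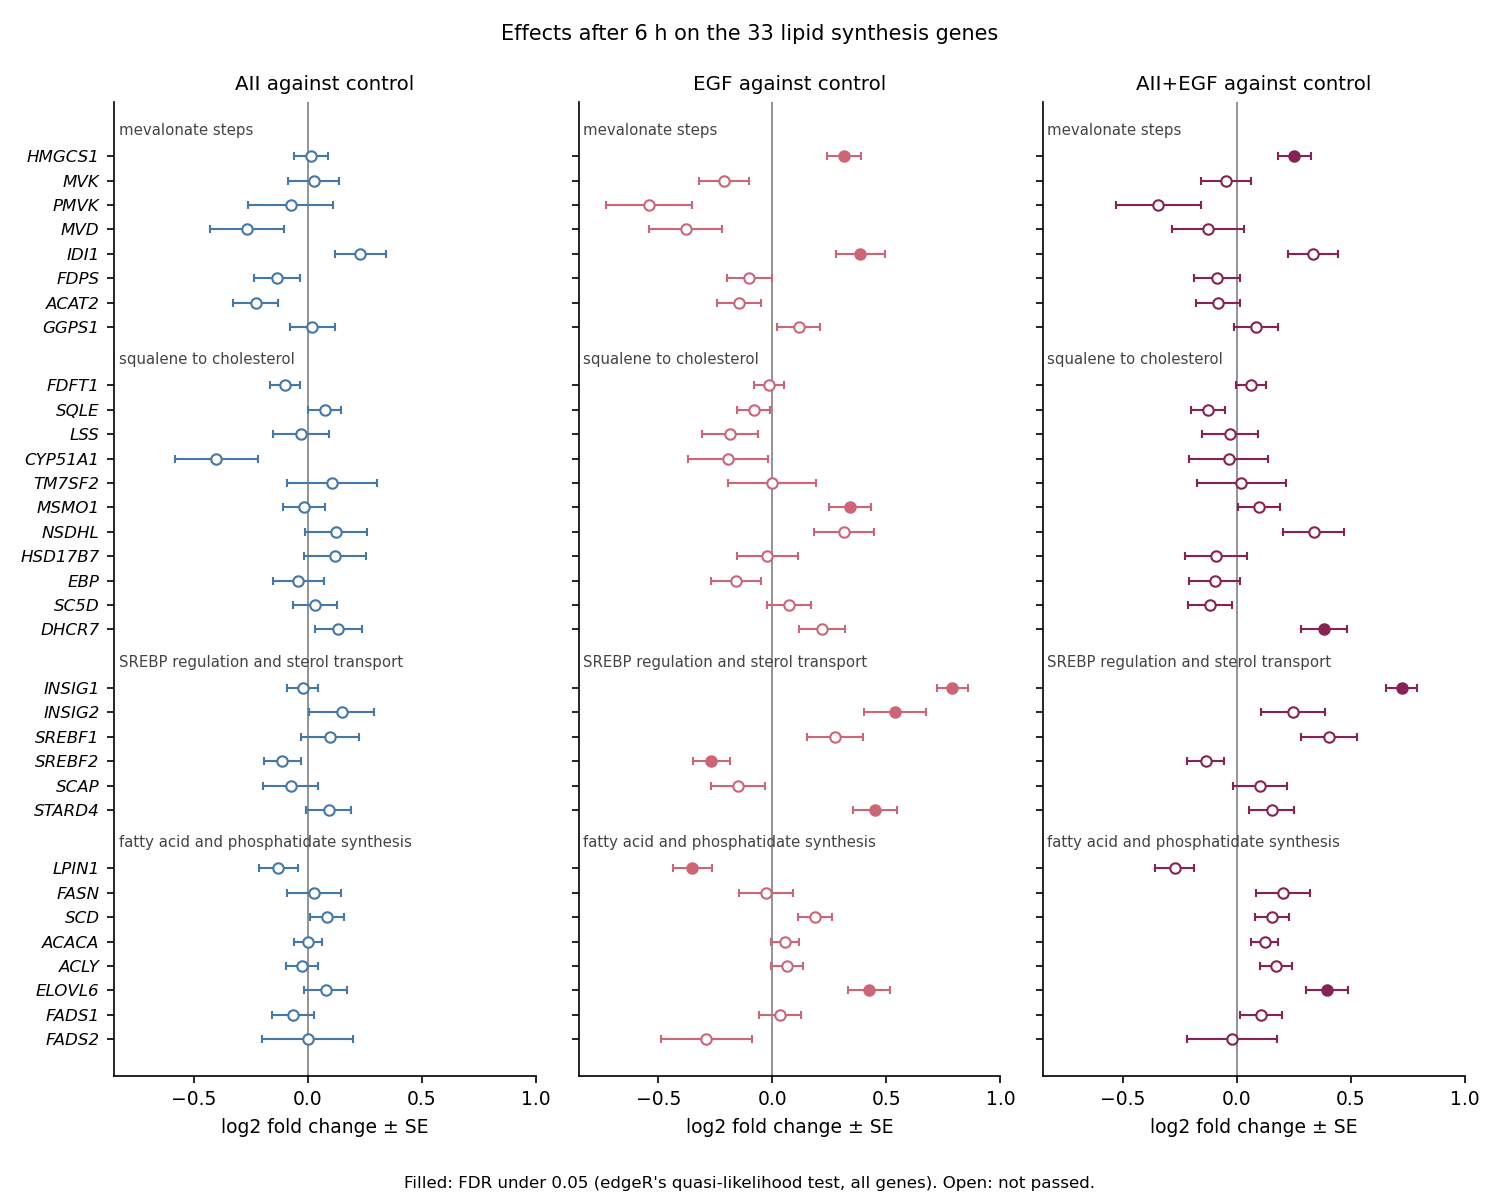
Log2 fold change ± SE (horizontal axes) of the 33 genes after 6 h, grouped by role, for AII, EGF and AII + EGF against control; filled points passed an FDR of 0.05 in edgeR's quasi-likelihood test over all genes and open points did not. INSIG1 stands apart at 0.79 with EGF and 0.72 with AII + EGF, and no point is filled for AII.

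Several of these calls missed the threshold when 1 library was left out. Such fits rest on fewer libraries, and a call could be lost without a smaller effect. For SREBF2, the fits that missed gave log2 fold changes of -0.29 to -0.19, beside -0.27 with all libraries. Libraries of a condition are numbered here in the order in which their values are given. INSIG1, STARD4, HMGCS1 and ELOVL6 passed with any single library left out, and INSIG1 then had log2 fold changes of 0.75 to 0.83. LPIN1 missed the threshold without EGF library 4 (adjusted p = 0.0636). INSIG2 missed it without control library 1 or 4 or EGF library 2 or 3 (up to 0.0581), and MSMO1 without control library 1, 3 or 4 or EGF library 1 (up to 0.101). IDI1 missed it without control library 1, 3 or 4 or EGF library 1, 2 or 3 (up to 0.112), and SREBF2 without control library 1, 2 or 4 or EGF library 1, 2 or 3 (up to 0.172). The count of 9 fell to 5 without control library 1 or control library 4, and the same genes remained in both fits (INSIG1, STARD4, HMGCS1, ELOVL6 and LPIN1). With the fold and FPM limits, INSIG1, INSIG2 and PMVK were called without control library 3, and INSIG1 and INSIG2 without control library 2 or EGF library 4. These counts were not set against the share of all genes in the same fits.

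Within each library series, that is, the runs of library numbers in the labels (2 control and 2 EGF libraries in each), all 9 differences kept their direction. They could not do otherwise, because the EGF and control libraries did not overlap in any of the 9 genes. INSIG1 differed by 0.80 and 0.77 on the log2 scale, STARD4 by 0.51 and 0.40, and LPIN1 by -0.39 and -0.31. The spread was wider for ELOVL6 (0.58 and 0.28), INSIG2 (0.72 and 0.40) and SREBF2 (-0.43 and -0.11). Exact two-sided permutation tests on FPM gave p = 0.0286 for each of the 9 genes, the smallest value that 4 against 4 libraries allow. Groups without overlap always give this value, so the tests add nothing to the separation stated above.

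The genes that rose had low GC content. The median GC of the longest transcript was 39.0% for the 7 risers and 53.2% for the other 26 genes, and across the 33 genes the EGF effect and GC had a correlation of -0.53 (-0.23 over 13094 genes, points that share the same libraries and are not independent). Libraries differed in how their levels followed GC, with correlations from -0.59 to 0.04 in EGF and from -0.28 to 0.35 in control. After each library's GC curve was subtracted, an adjustment added after the data were seen, 10 genes passed (against 8.13% of all genes). INSIG1 then had a log2 fold change of 0.76, ELOVL6 0.38, INSIG2 0.45, STARD4 0.33, HMGCS1 0.24 and LPIN1 -0.36. SREBF1 joined the risers with 0.36 (adjusted p = 0.0302), and SREBF2 stayed at -0.20 (adjusted p = 0.0272).

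**Figure D3:**
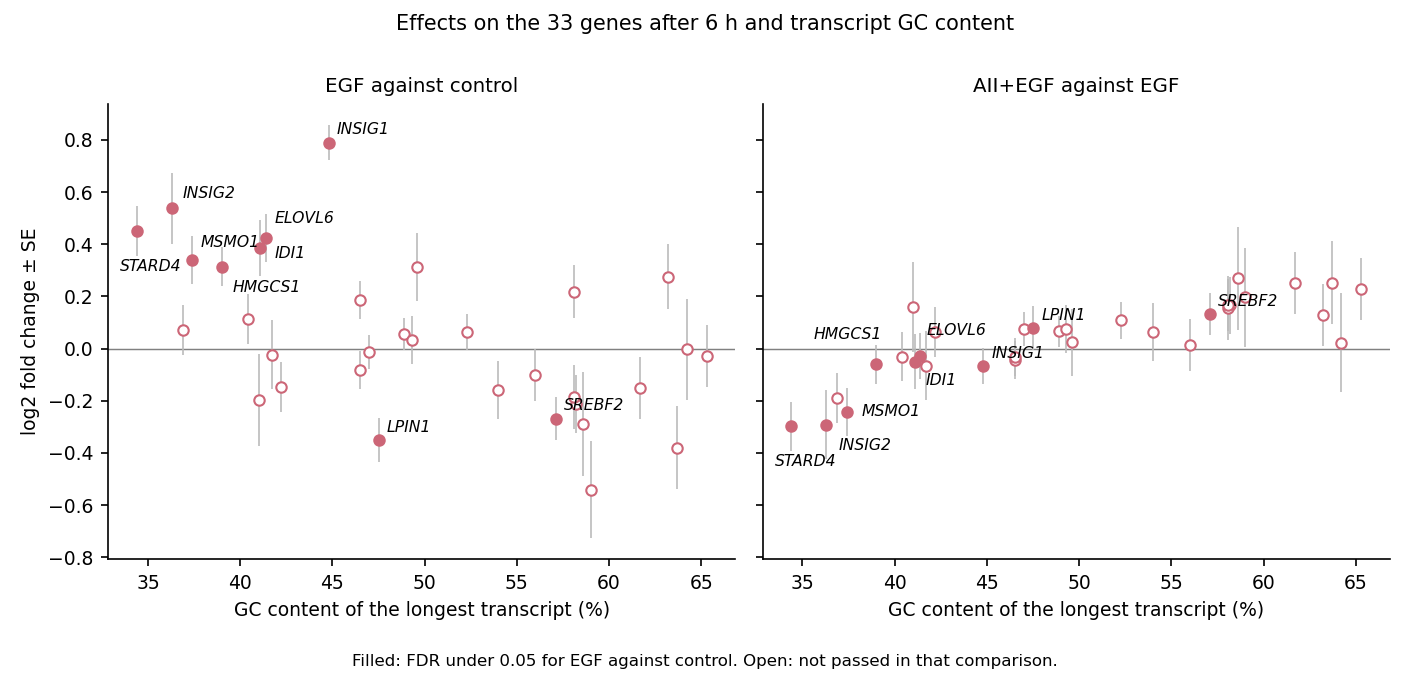
Log2 fold change ± SE (vertical axes) after 6 h against the GC content of each gene's longest transcript in percent (horizontal axes) for EGF against control (left) and AII + EGF against EGF (right); filled points are the 9 genes that passed an FDR of 0.05 for EGF. The risers lie between 34.4% and 44.8% GC, and on the right the differences climb with GC from -0.30 for STARD4 to 0.27 for FADS2.

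Strand was not stated for the counting, so reads of overlapping genes on opposite strands cannot be told apart. In the GENCODE annotation lifted to GRCh37, 37.7% of the exon bases of HMGCS1 overlap the antisense gene ENSG00000261604. For IDI1, 14.97% overlap IDI2-AS1, and for SREBF2, 9.08% overlap SREBF2-AS1. STARD4 (2.18%), ELOVL6 (3.3%) and LPIN1 (0.97%) overlap antisense genes less. INSIG1 (chromosome 7, 155089486 to 155101945), INSIG2 (chromosome 2, 118846028 to 118868573) and MSMO1 (chromosome 4, 166248819 to 166264316) have no overlapping exon in that annotation. Among genes named below, ACAT2 overlaps TCP1 on the opposite strand in 17.2% of its exon bases. On the same strand, CYP51A1 overlaps ENSG00000285772 in 68.2% and GGPS1 overlaps ENSG00000285053 in 37.3%. The counts were made on an Ensembl annotation, and whether it holds these overlapping genes was not checked. Whether reads were shared between these genes was not tested.

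The promoters of genes in which the EGF effect passed were read from RefSeq on GRCh38.p14. SREBP acts at sterol regulatory elements together with NF-Y, which binds the CCAAT box, and Sp1, which binds GC-rich boxes. Shown are 250 bases before the start of the riser with the largest effect (INSIG1), of a carrier and an enzyme that rose with it (STARD4 and MSMO1), and of SREBF2, which fell. Each runs in the direction of the gene. Capitals mark CCAAT on either strand (CCAAT or ATTGG), the E-box CACGTG and the sterol element core TCACNCCAC.
INSIG1, chr7:155297628-155297877, plus strand: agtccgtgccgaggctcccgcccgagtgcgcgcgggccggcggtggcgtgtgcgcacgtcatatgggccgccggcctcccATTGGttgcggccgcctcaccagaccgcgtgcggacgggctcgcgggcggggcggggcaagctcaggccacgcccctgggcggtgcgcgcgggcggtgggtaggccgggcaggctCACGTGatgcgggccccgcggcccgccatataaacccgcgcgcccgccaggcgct
STARD4, chr5:111512536-111512785, minus strand: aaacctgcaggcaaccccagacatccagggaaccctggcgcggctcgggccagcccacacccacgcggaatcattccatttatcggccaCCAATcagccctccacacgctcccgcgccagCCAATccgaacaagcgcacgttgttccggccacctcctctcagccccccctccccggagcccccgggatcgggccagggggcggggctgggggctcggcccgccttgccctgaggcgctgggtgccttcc
MSMO1, chr4:165327419-165327668, plus strand: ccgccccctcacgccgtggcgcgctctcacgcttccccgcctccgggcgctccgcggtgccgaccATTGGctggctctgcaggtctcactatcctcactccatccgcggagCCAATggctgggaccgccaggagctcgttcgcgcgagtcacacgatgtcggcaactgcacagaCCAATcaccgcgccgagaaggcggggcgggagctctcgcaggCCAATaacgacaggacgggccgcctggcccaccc
SREBF2, chr22:41832855-41833104, plus strand: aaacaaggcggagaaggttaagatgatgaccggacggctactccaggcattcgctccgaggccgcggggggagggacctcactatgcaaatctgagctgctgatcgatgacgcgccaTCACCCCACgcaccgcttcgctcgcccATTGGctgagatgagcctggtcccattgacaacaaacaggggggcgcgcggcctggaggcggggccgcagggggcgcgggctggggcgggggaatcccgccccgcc

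Of the 33 genes, 29 had a promoter in that table, which covers 250 bases before and 50 bases after each start. CCAAT was present on either strand in 21 of the 29 (72.4%), against 39.7% of the 27305 genes of the table. The box GGGCGG, which can overlap the others, was present in 28 of 29 (96.6%, against 48.3%). CACGTG was found in 4 (INSIG1, LSS, SC5D and SCAP, 13.8%, against 8.77%) and TCACNCCAC in SREBF2 alone (3.45%, against 1.39%). These matches describe the letters only. Of the 9 genes that passed, HMGCS1, IDI1, INSIG1, MSMO1, SREBF2 and STARD4 hold CCAAT in the window, and INSIG2, LPIN1 and ELOVL6 do not.

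With AII alone, no gene of the 33 passed after 6 h (0 of 33 with an FDR under 0.05 in edgeR, against 0% of all genes). At an unadjusted p under 0.05 there were 2 of 33 (against 4.54% of all genes). DESeq2 called 0 genes of the 33, a count that was not set against its share of all genes. The AII and control libraries overlapped in all 33 genes (2.14% of all genes did not overlap). Log2 fold changes ran from -0.40 to 0.23 with a median of -0.00078, and the 95% intervals of 32 of the 33 genes lay within a 1.5-fold change in either direction. INSIG1 was at 176, 186, 181 and 199 FPM with AII, all inside the control range (log2 fold change -0.02, SE 0.069). The 3 smallest p were those of ACAT2, the cytosolic acetoacetyl-CoA thiolase (-0.23, SE 0.098, adjusted p = 0.987), CYP51A1, the lanosterol demethylase (-0.40, SE 0.18, adjusted p = 0.987), and IDI1 (0.23, SE 0.11, adjusted p = 0.987).

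ACAT2 was at 90.0, 63.3, 80.5 and 74.9 FPM in control and at 66.0, 73.0, 56.2 and 67.2 FPM with AII. CYP51A1 was at 16.9, 8.61, 14.2 and 13.1 FPM in control and at 11.2, 8.48, 11.7 and 7.61 FPM with AII. IDI1 reached 54.3 FPM in AII library 4 and was at 38.7 to 45.1 FPM in the others. Without control library 1 the log2 fold change of ACAT2 was -0.15, and without AII library 4 that of IDI1 was 0.14.

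With AII + EGF, 4 of the 33 genes rose after 6 h and none fell (12.1%, against 6.1% of all genes at an FDR under 0.05, with 4% higher and 2.11% lower). An unadjusted p under 0.05 was found in 10 of 33 (against 18.9% of all genes), and the groups did not overlap in 8 (against 12.1%). Without the filter on low counts 7 genes passed (against 2.99% of all genes then tested), and with the GC adjustment and the series block together 8 passed (against 10.6%). INSIG1 was again the only gene called with the fold and FPM limits (3.03%, against 1.95%). It was at 326, 302, 304 and 312 FPM, with a log2 fold change of 0.72 against control (SE 0.069, adjusted p = 2.27e-07). ELOVL6 was at 53.1, 52.7, 50.1 and 51.4 FPM (0.39, SE 0.091, adjusted p = 0.00933). HMGCS1 was at 447, 423, 401 and 375 FPM (0.25, SE 0.074, adjusted p = 0.0423). The lowest of these libraries lay above the highest control library in each gene. HMGCS1 missed the threshold without control library 1, 3 or 4 or AII + EGF library 1, 2 or 3 (adjusted p up to 0.15), and the count of 4 fell to 2 without AII + EGF library 2.

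DHCR7, the reductase of the last step to cholesterol, was at 113, 120, 122 and 116 FPM with AII + EGF and at 68.5, 95.1, 98.5 and 97.4 FPM in control (log2 fold change 0.38, SE 0.10, adjusted p = 0.0237). The control library at 68.5 FPM stood well below the others. Without it the log2 fold change was 0.29 (adjusted p = 0.0519), without AII + EGF library 2 or 3 it was 0.37 (adjusted p up to 0.0704), and with the GC adjustment it was 0.32 (adjusted p = 0.0606). With that adjustment 5 of the 33 genes passed for AII + EGF (against 8.86% of all genes), namely INSIG1, ELOVL6, HMGCS1 and IDI1, which were higher, and LPIN1, which was lower. SREBF1 was at 34.8, 37.8, 43.1 and 44.7 FPM with AII + EGF and 25.1 to 35.8 FPM in control and missed the threshold (0.40, SE 0.12, adjusted p = 0.0545). Its difference was 0.11 in the first library series and 0.68 in the second. INSIG2 (0.25, SE 0.14, adjusted p = 0.358), SREBF2 (-0.14, SE 0.081, adjusted p = 0.384) and SCAP (0.10, SE 0.12, adjusted p = 0.714) did not pass. STARD4 and MSMO1 had log2 fold changes of 0.15 and 0.10 (adjusted p = 0.427 and 0.634).

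When AII + EGF was set directly against EGF, 0 of the 33 genes passed (against 0% of all genes in edgeR). Unadjusted p were under 0.05 in 4 of 33 (against 7.26%), and the groups did not overlap in 3 (against 5.59%). The 3 smallest were those of STARD4 (log2 difference -0.30, SE 0.094, unadjusted p = 0.00409), MSMO1 (-0.24, SE 0.090) and INSIG2 (-0.29, SE 0.13), with adjusted p of 0.677 to 0.678. STARD4 was at 37.7, 42.3, 40.0 and 37.1 FPM with AII + EGF, below all 4 EGF libraries. These are low-GC genes, and in this comparison effect and GC had a correlation of 0.81 across the 33 genes and 0.60 over 13002 genes. After the GC adjustment, again no gene of the 33 passed (0.00537% of all genes), and the differences were -0.14 for STARD4, -0.13 for MSMO1 and -0.16 for INSIG2.

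For INSIG1 the difference between AII + EGF and EGF was -0.07 (SE 0.067). The interaction of AII and EGF, the excess of the combined effect over the sum of the single effects on the log2 scale, passed in 0 of 33 genes (against 0%, with unadjusted p under 0.05 in 6 of 33 against 8.01% of all genes). It was -0.04 (SE 0.097) for INSIG1. The smallest p belonged to STARD4 (-0.39, SE 0.14, adjusted p = 0.592), MVD, the mevalonate diphosphate decarboxylase (0.52, SE 0.23, adjusted p = 0.604), and INSIG2 (-0.44, SE 0.19, adjusted p = 0.606). After the GC adjustment these were -0.14, 0.33 and -0.25, and the smallest p were then those of ACAT2 (0.37, SE 0.13) and CYP51A1 (0.64, SE 0.26), both with an adjusted p of 0.876.

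When EGF was added to AII, 2 of 33 genes rose after 6 h and none fell (6.06%, against 5.93% of all genes, with 3.92% higher and 2.01% lower), a share near the background. The count was 4 with the library series as a block (against 7.05% of all genes), 4 with the GC adjustment (against 8.15%) and 6 with both (against 9.82%), with HMGCS1 added in each, ACLY in those with the block, SQLE (lower) in those with the GC adjustment and MSMO1 with both. With the fold and FPM limits INSIG1 was called (3.03%, against 1.87%). An unadjusted p under 0.05 was found in 8 of 33 (against 19.6%), and the groups did not overlap in 6 (against 12.8%). INSIG1 differed by 0.75 (SE 0.069, adjusted p = 1.21e-07) and ELOVL6 by 0.32 (SE 0.091, adjusted p = 0.0403). ELOVL6 was at 42.4, 39.7, 39.7 and 45.1 FPM with AII, below all AII + EGF libraries, but its adjusted p rose above 0.05 (up to 0.13) when any library other than AII library 4 was left out. INSIG1 passed in each of those fits. The count of 2 fell to 1 without AII library 1 or AII + EGF library 1, 2 or 3. The comparisons with EGF, with AII and with control share libraries, so that they do not support each other independently.

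Other genes of lipid metabolism were counted by lists chosen with earlier results of these data known. Of 14 further synthesis genes linked to SREBP, 4 rose with EGF after 6 h and none fell, where 3.6% of all genes rose and 2.37% fell. They were ME1, the NADPH-making malic enzyme (42.3 against 26.6 FPM, log2 fold change 0.66, SE 0.094), ELOVL5 (0.49, SE 0.12), FADS3 (0.76, SE 0.17) and ACSL3, an acyl-CoA synthetase (0.31, SE 0.082). With AII + EGF, 3 of the 14 rose (ME1, ELOVL5 and FADS3, against 4% of all genes). Of 9 genes of SREBP processing and sterol-dependent degradation, SEC24D, a coat protein of transport vesicles (0.49, SE 0.12), and PAQR3 (0.35, SE 0.099) rose with EGF, and SEC24D alone with AII + EGF (0.47, SE 0.12), with the same shares of all genes as background. Against AII, AII + EGF raised ME1 (0.75, SE 0.096) and lowered COQ2 (-0.38, SE 0.11, adjusted p = 0.0496), which is 1 of 11 genes of isoprenoid use (3.92% of all genes rose and 2.01% fell in that comparison). None of the 11 genes of fatty acid oxidation or of the 4 tested genes of LXR and its targets passed in any comparison after 6 h. After 24 h no gene of these lists passed in any comparison.

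The summed level of the 33 genes was 4821 to 5335 FPM in control, 4823 to 5396 FPM with AII, 5102 to 5491 FPM with EGF and 5368 to 5611 FPM with AII + EGF after 6 h. The AII + EGF libraries lay above the control libraries, and FASN alone made up 1041 to 1600.4 FPM of these sums. As a share of protein-coding counts the sums were 0.579% to 0.663% after 6 h. After 24 h they were 0.372% to 0.437%, and the conditions overlapped. The tables of the times were normalised separately, and their levels were not tested against each other.

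After 24 h none of the 33 genes passed in any comparison (0 of 33 for EGF, against 0.0316% of all genes; 0 for AII, against 0%; 0 for AII + EGF, against 0.0271%). At an unadjusted p under 0.05 there were 3 genes for EGF (against 8.48%), 2 for AII (against 2.49%) and 2 for AII + EGF (against 5.4%). DESeq2 gave 0 genes in each, counts that were not set against its shares of all genes. For EGF and for AII the libraries overlapped with control in all 33 genes (4.43% and 1.97% of all genes did not overlap). For AII + EGF, HSD17B7 and TM7SF2 did not overlap with control (2 of 33, against 7.18%). The precision was lower than after 6 h. The median SE of the EGF effects was 0.17, against 0.10 after 6 h, and the 95% intervals of 23 of the 33 genes lay within a 1.5-fold change in either direction.

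INSIG1 after 24 h was at 60.2, 68.8, 52.2 and 56.2 FPM in control and at 103, 98.5, 64.0 and 60.8 FPM with EGF. The EGF libraries split by library series, and those of the second series overlapped the control libraries. Every analysed count column of the first series after 24 h is named as filtered. The control, EGF and AII columns of the second series are not, and what this contributed to the split was not tested. The log2 fold change of INSIG1 with EGF was 0.46 (SE 0.17, unadjusted p = 0.0136, adjusted p = 0.447), with 0.64 in the first series and 0.20 in the second. With AII + EGF it was at 91.7, 66.1 and 71.3 FPM (0.37, SE 0.18, adjusted p = 0.929), above all 4 AII libraries (43.6 to 62.7 FPM, difference 0.41, SE 0.18, adjusted p = 1.00).

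HSD17B7, which reduces a keto group of the sterol ring, had the smallest p for EGF after 24 h (0.74, SE 0.27, adjusted p = 0.433) and for AII (0.71, SE 0.27, adjusted p = 1.00). It was at 3.80, 5.50, 2.55 and 4.20 FPM in control, at 8.20, 4.80, 5.28 and 8.79 FPM with EGF and at 6.25, 6.77, 4.88 and 8.46 FPM with AII. The 3 libraries with AII + EGF were at 6.73, 5.50 and 6.18 FPM. The EGF and AII libraries overlapped the control range, and the lowest AII + EGF library lay just above the highest control library, with both at 5.50 FPM after rounding. The tables hold 14 to 123 counts of the pseudogene HSD17B7P2 beside 42 to 116 counts of HSD17B7 after 24 h, and whether reads were shared between the copies was not tested. MVK, the mevalonate kinase, had a log2 fold change of -0.56 with EGF (SE 0.24, adjusted p = 0.519). With AII, STARD4 had -0.42 (SE 0.17) and LPIN1 -0.22, both with an adjusted p of 1.00. Without AII library 1 the value of LPIN1 was -0.35.

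**Figure D4:**
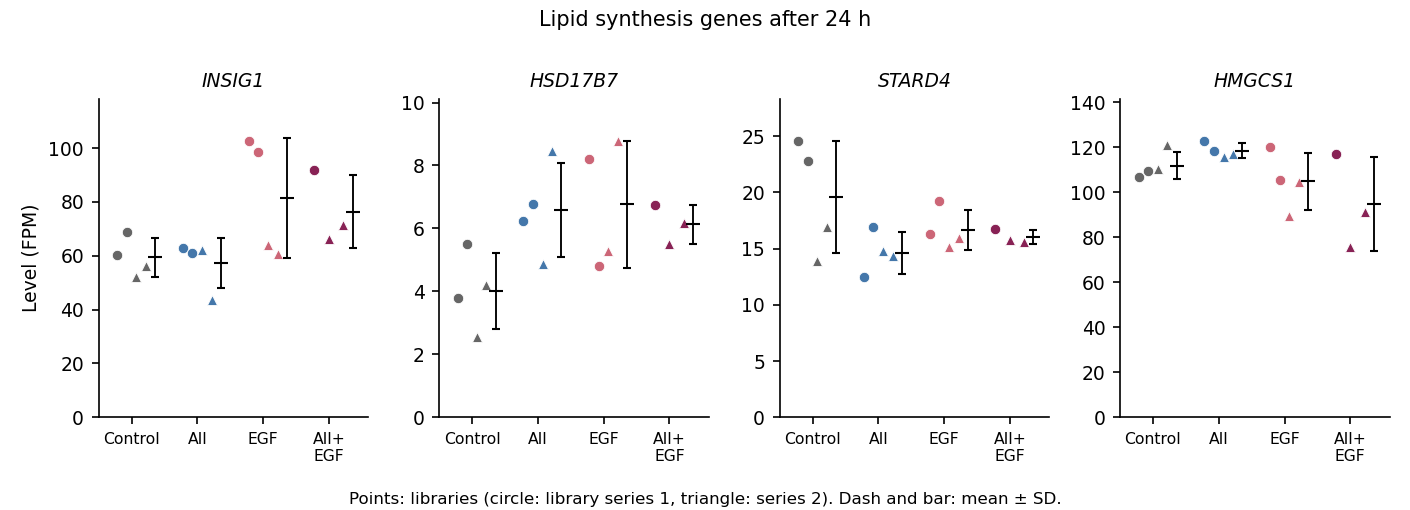
Level in FPM (vertical axes, from 0) of INSIG1, HSD17B7, STARD4 and HMGCS1 by condition after 24 h; points are libraries (circles library series 1, triangles series 2) and dashes with bars are mean ± SD (n = 4, and n = 3 for AII + EGF). For INSIG1 the EGF libraries of series 1 were at 98.5 and 103 FPM and those of series 2 at 60.8 and 64.0 FPM.

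For AII + EGF after 24 h, the smallest p against control were those of ACAT2 (-0.61, SE 0.27, adjusted p = 0.906), HSD17B7 (0.62, SE 0.29) and INSIG1. ACAT2 was at 8.03, 14.7, 22.8 and 15.2 FPM in control and at 10.3, 9.69 and 9.85 FPM with AII + EGF, which lay inside the control range. Against EGF, 0 of 33 genes passed (against 0% of all genes), and at an unadjusted p under 0.05 there were also 0 of 33 (against 3.37%). ACAT2, LSS and INSIG2 had the smallest p. Against AII, 0 of 33 passed (against 0.0451%), and HMGCS1 (-0.32, SE 0.13), INSIG1 and GGPS1 (0.30, SE 0.13) had the smallest p. Single libraries moved these values. Without AII + EGF library 1, INSIG1 was at 0.21 against control and 0.26 against AII, GGPS1 at 0.18 and HMGCS1 at -0.50, and without AII + EGF library 2 HMGCS1 was at -0.18. Without control library 3, ACAT2 was at -0.35 against control. The interaction passed in 0 of 33 (against 0%), with HSD17B7 (-0.83, SE 0.40), LPIN1 and STARD4 at the smallest p.

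Whether the effects differed between 24 h and 6 h was tested in a joint fit. None of the 33 differences passed for EGF (against 0.173% of all genes), AII (against 0%) or AII + EGF (against 0.123%). At an unadjusted p under 0.05 there were 8 of 33 for EGF (against 10.1%) and 5 of 33 for AII + EGF (against 7.49%). The EGF effect on STARD4 was lower by 0.68 on the log2 scale after 24 h (difference -0.68, SE 0.19, unadjusted p = 0.000942, adjusted p = 0.153). For HMGCS1 the difference was -0.41 (SE 0.14, adjusted p = 0.267). For INSIG1 it was -0.34 (SE 0.19, adjusted p = 0.564). Without control library 3 after 24 h, STARD4 passed for EGF, and without AII + EGF library 1 after 24 h, HMGCS1 passed for AII + EGF. The values after 24 h do not show whether these effects persisted or ended.

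**Figure D5:**
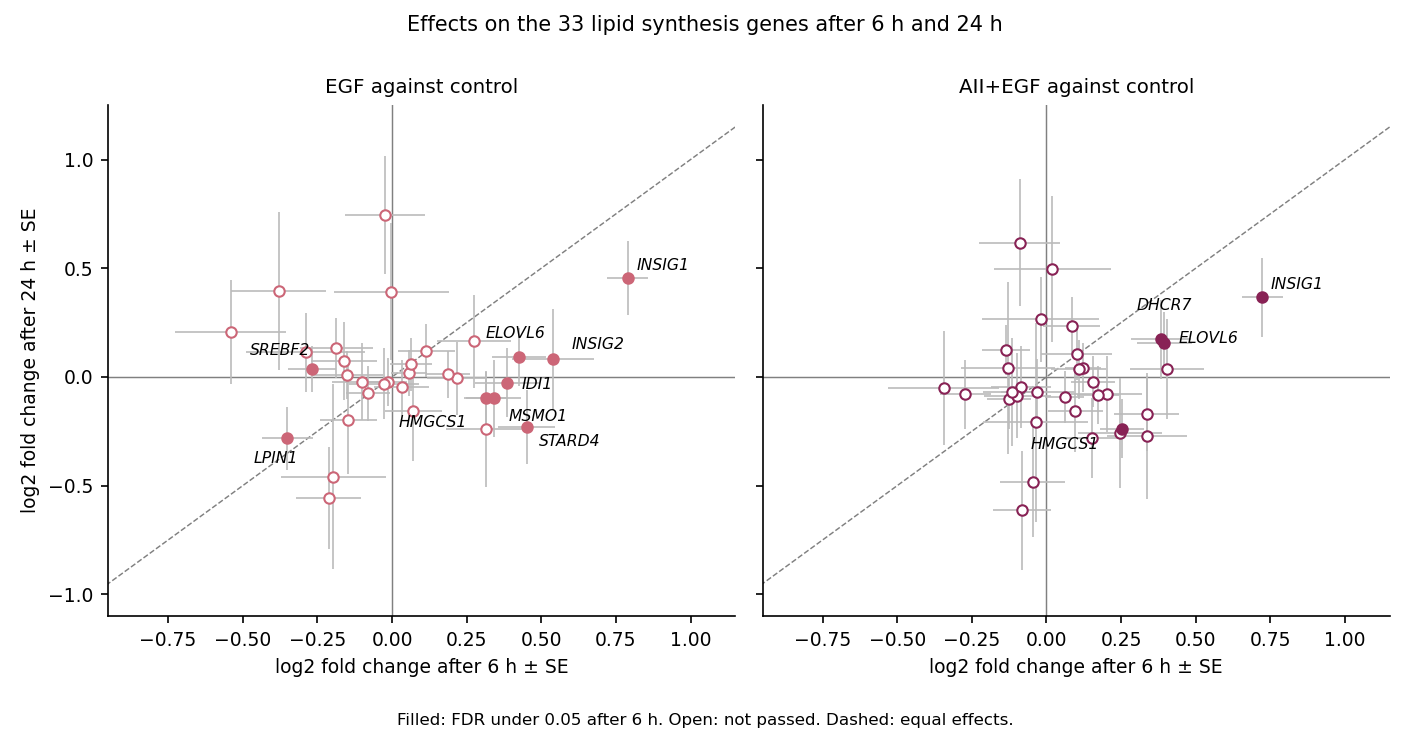
Log2 fold change ± SE after 24 h (vertical axis) against that after 6 h (horizontal axis) for the 33 genes, with EGF (left) and AII + EGF (right) against control; filled points passed an FDR of 0.05 after 6 h and the dashed line marks equal effects. INSIG1 is positive on both axes (0.79 and 0.46 with EGF), and STARD4 moves from 0.45 to -0.23.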

How the data were processed

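RNA-seq counts of the 33 genes were analysed. Per the labels and the paper's methods, rRNA was removed (RiboMinus), paired-end reads were clipped with Trim Galore and cutadapt 1.8.1, mapped to hg19 with TopHat2 2.0.14 and counted with featureCounts 1.4.6 on an Ensembl annotation. The text of the series names HISAT2 instead. The authors deposited raw counts per gene, without normalization. Of the 24 h columns, 8 are named as filtered, with no explanation, and 1 labelled AII + EGF library was not analysed here. Low counts were removed with filterByExpr, and TMM factors and quasi-likelihood tests were computed with edgeR 4.0.16 (R 4.3.3), in 1 fit per time point with all 4 conditions and no covariate. Effects at both time points were compared in a joint fit. FPM are counts per 1000000 counts of the TMM-scaled library. A gene passed at a Benjamini-Hochberg FDR under 0.05 over all genes tested, and was called when its fold change also exceeded 1.5 and its mean FPM exceeded 5 in the higher group. Intervals are 95% and use the SE with the normal quantile, so they are somewhat narrower than the quasi-likelihood test implies. The members and lists were chosen with earlier results of these data known. Values were given for each gene that passed in any comparison, for the regulators, and elsewhere for the 3 smallest p. GC content came from the longest transcript of the GENCODE annotation lifted to GRCh37 (GC values for 96.7% of genes), with ACACA matched by symbol. GC curves used loess with a span of 0.5. The alternatives were DESeq2 1.42.0, its size factors, no filter on low counts, protein-coding genes, the library series as a block, only the groups compared, the FDR alone, and each library left out. Added after seeing the data were the GC adjustment, alone and with the series block, the series block on protein-coding genes alone, and a fit without the 2 libraries richest in U1 RNA. The procedure was tested on simulated data.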

Additional observations from a re-analysis of the deposited data

Results flagged for a closer look

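Within-group gaps were compared with Dixon's 95% critical value for 4 libraries in 106 groups, and 7 exceeded it, where chance gives about 1 in 20, or 5.3. DHCR7 in control after 6 h had a gap of 0.886 of the range, at 68.5 FPM against 95.1 to 98.5 FPM in the other libraries. SREBF2 in the same library stood high at 376 FPM against 306 to 317 FPM (gap 0.847). INSIG1 was highest in EGF library 1 after 6 h, at 359 FPM against 311 to 318 FPM (gap 0.856). The summed FPM of the 33 genes was high in AII library 3 after 6 h (gap 0.83, 5396 FPM against at most 4920 FPM). It was low in AII + EGF library 2 (gap 0.955, 5368 FPM against at least 5600 FPM). After 24 h, GGPS1 was low in AII library 3 (gap 0.888, 27.0 FPM against at least 33.6 FPM) and INSIG1 was low in AII library 4 (gap 0.913, 43.6 FPM against at least 61.0 FPM).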

How the results depend on the processing

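Counts and medians are of the 33 genes, medians are log2 fold changes, and the cause of each shift was not tested. Without the filter on low counts, 7 genes passed the FDR for AII + EGF after 6 h (4 with it), and medians were 0.019 for EGF (-0.0028 with it), 0.108 for AII + EGF (0.084) and 0.128 for AII + EGF against AII (0.106). With the library series as a block, 4 genes passed for AII + EGF against AII (2 without). With the FDR alone, 9 genes passed for EGF, 4 for AII + EGF and 2 for AII + EGF against AII, where 1 each was called with the fold and FPM limits. With GC offsets, medians after 6 h were 0.042 for EGF, 0.060 for AII + EGF, 0.034 for AII + EGF against EGF (0.065 without) and 0.0061 for the interaction (0.068), and 4 genes passed for AII + EGF against AII. With GC offsets and the series block, they were 0.041, 0.061, 0.036 and 0.0037, and 8 genes passed for AII + EGF and 6 for AII + EGF against AII. Without the 2 libraries richest in U1 RNA, the interaction median after 24 h was 0.018 (-0.042 with them). With each library left out, 5 to 8 genes passed for EGF after 6 h and 1 to 3 were called, 2 to 5 passed for AII + EGF, and 1 to 3 for AII + EGF against AII. In these fits the counts were not set against the share of all genes. Medians then ran from -0.0089 to 0.047 for EGF, from -0.021 to 0.014 for AII, from 0.063 to 0.0997 for AII + EGF, from 0.038 to 0.079 for AII + EGF against EGF, from 0.079 to 0.129 for AII + EGF against AII, from 0.046 to 0.106 for the interaction, and from -0.114 to 0.039 for AII + EGF after 24 h. The EGF effect and the AII + EGF effect differed between the times in 0 to 1 genes. No named gene changed sign in any of these fits. With all libraries, SREBF2 no longer passed the FDR for EGF without the filter (log2 fold change -0.25, adjusted p = 0.0617, edgeR) or with only the groups compared (-0.27, adjusted p = 0.087), nor HMGCS1 for AII + EGF in the latter (0.25, adjusted p = 0.0563). No paired analysis was possible because replicate numbers are not part of the labels. The lowest count in a control library after 6 h was 27, for TM7SF2, and what depth contributed to the SE was not tested.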

Other observations

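SREBF1 differed between the library series after 6 h. With EGF its log2 difference from control was -0.06 in the first series and 0.59 in the second, and with AII + EGF 0.11 and 0.68. FASN, a textbook target of SREBP1, differed with AII + EGF by 0.03 in the first series and 0.37 in the second, SCAP by -0.13 and 0.32, and LSS by -0.31 and 0.27. These genes have GC contents of 58.1% to 65.3%, and the AII + EGF libraries of the second series had the correlations of library deviation with GC of 0.31 and 0.50. The difference between the series was not tested. After the GC adjustment the log2 fold change of SREBF1 with EGF was 0.36 (adjusted p = 0.0302, edgeR), and with AII + EGF it was 0.31 (adjusted p = 0.0671).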
